A study of Mus musculus with 24 samples.

Results

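RNA levels of PMCA4 knockout cells and PMCA4 wild type cells were compared across all genes, on 5 arrays of each group, chosen by genotype label from the 24 arrays of the series. Both groups were primary vascular smooth muscle cells from the carotid artery of male C57bl6 mice. They were synchronized by serum, stimulated with serum and PDGF-BB (a platelet-derived growth factor), and collected in late G1/S, the stretch of the cell cycle in which cells commit to copying their DNA. The cells electroporated with PMCA4b or vector DNA did not enter the comparison. The labels give neither the ages of the mice, nor the deleted part of the gene, nor whether replicates were separate animals or cultures, so each p-value sets a difference against the spread among these arrays, part or all of which may be technical.

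Atp2b4 encodes PMCA4, one of the pumps of the plasma membrane that spend ATP to push calcium out of the cell. Smooth muscle cells of the artery wall can leave the contractile state after injury or in culture and divide under growth factors such as PDGF. Cyclins D and E carry such cells through G1, E2F factors then switch on replication genes, and the mitotic genes follow in G2.

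The knockout differed from the wild type at a large share of all genes: division genes were lower while many contractile and matrix genes were higher. Of 6954 genes tested, 3910 were called at a limma adjusted p under 0.05 (56.2%). Knockout cells had 1776 genes higher (25.5%) and 2134 lower (30.7%), with a median log2 difference of -0.04 over all genes. For 2896 called genes the 10 arrays fell into separate ranges by group (41.6%). Differences of at least 2-fold were found for 291 higher and 184 lower genes, and of at least 4-fold for 98 and 31. These shares are the background against which each group of genes below is read.

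On each array 9660 to 10011 of 25697 probes were detected. Of the variance, 81.6% lay on a first principal component that parted the groups, while the second, with 4.45%, set replicate 5 of both groups apart. Arrays of one group correlated at 0.991 to 0.995 and arrays of different groups at 0.946 to 0.951. The deposited columns were cut, in their order, into sets of 8 arrays. The labels mark no such sets, so the cut is an assumption. Replicate 5 of each group lies in the last set, and the third component, with 2.50%, parted the first set from the second in both groups. The main fit left the set out. With the set as a block 4082 genes were called, and within the 2 sets that hold 2 arrays of each group 2353 and 2333 were called; the last set holds 1 array of each group and allows no test.

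The smooth muscle label was set against its markers. Acta2, smooth muscle actin, and Tagln, an actin-binding protein of smooth muscle, were detected on all 10 arrays. Cnn1, Myh11, Mylk, Lmod1 and Des, which mark fully contractile smooth muscle, were detected on 0 of 10 arrays. Of 15 endothelial markers on the array 12 were detected on no array, Pecam1, Cdh5 and Vwf among them, and of 15 leukocyte markers 11, with Ptprc among them. The summed intensity of the 3 measured endothelial markers ran from 1200 to 1344 in wild type and from 954 to 1110 in knockout cells. For the 2 measured leukocyte markers it ran from 286 to 363 and from 217 to 258, but they went opposite ways: Cd14 fell 2.40-fold, and Lyz1, a lysozyme, was undetected on wild-type arrays and at least 1.31-fold higher. In bulk samples, fewer cells of a type and less RNA per cell cannot be told apart.

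**Figure D1:**
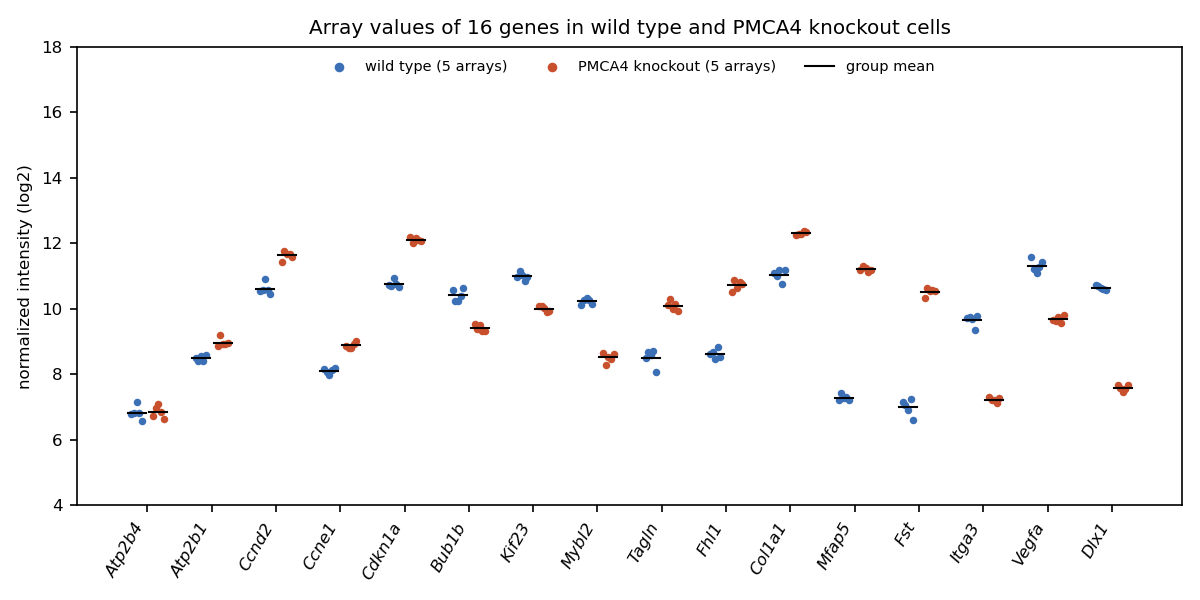
Normalized log2 intensity of 16 genes on each of the 5 wild-type and 5 knockout arrays, with a line at each group mean. Only the values of Atp2b4 overlap between the groups; the mean of Dlx1 lay at 10.65 in wild type and 7.60 in knockout cells.

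The probe of Atp2b4 that could be read was not called in either direction. It gave 6.78, 6.81, 7.15, 6.82 and 6.57 in the wild-type arrays and 6.72, 6.97, 7.08, 6.85 and 6.65 in the knockout arrays, overlapping ranges near the detection limit (log2 difference 0.03, SE 0.11, adjusted p = 0.82). The labels do not place this probe relative to the deletion, so it checks neither genotype. No signal above background came from the remaining Atp2b4 probes or from those for its sister pumps Atp2b2 and Atp2b3 on any of the 10 arrays. Atp2b1, the calcium pump found in most cells, read 8.50, 8.42, 8.55, 8.40 and 8.60 in the wild-type arrays and 8.86, 9.20, 8.93, 8.92 and 8.96 in the knockout arrays. All knockout values lay above all wild-type values, 1.39-fold higher (log2 difference 0.48, SE 0.07, adjusted p = 0.000115).

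Other calcium transporters moved in both directions. Of 7 measured pumps and exchangers, 4 were called higher and 1 lower. Slc24a3, a sodium, calcium and potassium exchanger, was undetected on wild-type arrays and at least 1.51-fold higher in knockout cells. Atp2c1, the calcium pump of the Golgi, rose 1.33-fold, and the plasma membrane exchanger Slc8a1 rose 1.23-fold, a call that was lost with all 24 arrays, with median scaling and within the first array set (limma adjusted p = 0.0513, 0.0558 and 0.0672). Slc8b1, the mitochondrial exchanger, fell 1.19-fold. Of the store-operated entry genes, the sensor Stim1 rose 1.39-fold and the channel subunit Orai3 fell 1.34-fold, while Orai1 differed by 0.03 on the log2 scale without a call. Of 23 measured genes of calcineurin and calmodulin signalling 7 were higher and 6 lower, 56.5% called and so near the share of all genes. Among the subunits of calcineurin, the phosphatase that calcium switches on, Ppp3ca rose 1.63-fold and Ppp3cc 1.48-fold, Ppp3cb fell 1.25-fold, and Ppp3r1 differed by 0.10 on the log2 scale without a call. Rcan2, a regulator of calcineurin, fell 2.98-fold, and its target factors Nfatc3 and Nfatc1 fell 1.48-fold and 1.28-fold.

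Genes of chromosome 12 were shifted upward as a whole, a pattern noticed after the values were seen. Of 223 measured genes on this chromosome 167 were called higher (74.9%) and 13 lower, against 1606 higher (23.9%) and 2120 lower of 6727 genes on the other chromosomes. The median log2 difference was 0.38, about 1.30-fold, with quartiles of 0.22 and 0.58, while the other chromosomes together had a median of -0.05. Relative to all other genes, the median of chromosome 12 lay 0.43, 0.46, 0.43, 0.42 and 0.42 above the wild-type mean on the 5 knockout arrays, and between -0.02 and 0.01 on the 5 wild-type arrays. The knockout arrays were thus close to each other and far from the wild type.

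The shift ran along the whole chromosome. In 9 successive stretches of 23 to 25 measured genes, from Rab10 to Ncapg2, the median log2 difference lay between 0.24 and 0.46, and each stretch had 17 to 21 genes called higher and 0 to 3 lower. Genes that went the other way include Twistnb, at least 2.49-fold lower and undetected in knockout cells, the ETS factor Etv1, 2.38-fold lower, and the oxygen sensor Egln3, at least 1.72-fold lower. Nrcam, a neuronal adhesion molecule, was the highest, undetected on wild-type arrays and at least 8.36-fold higher. The medians of the other chromosomes lay between -0.18 and 0.15. Chromosome 19, the highest of these, had 111 genes higher and 38 lower with a median of 0.15. DNA copy number was not measured, and the cause of the shift was not tested.

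**Figure D2:**
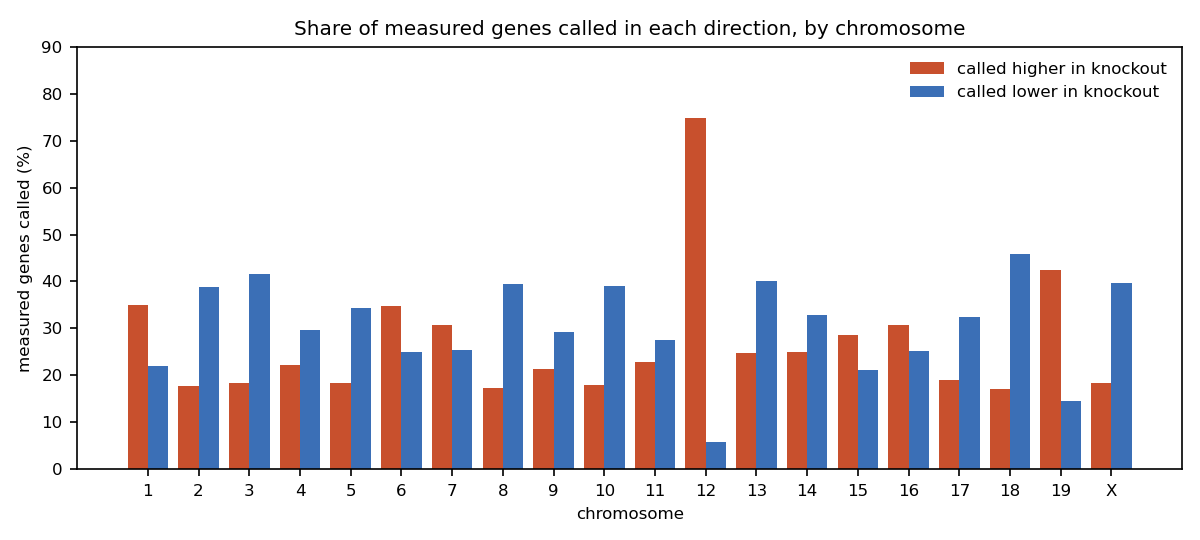
Percentage of the measured genes of each chromosome (x axis) called higher or lower in knockout cells. On chromosome 12, 74.9% of measured genes were called higher, against 23.9% on the other chromosomes together.

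**Figure D3:**
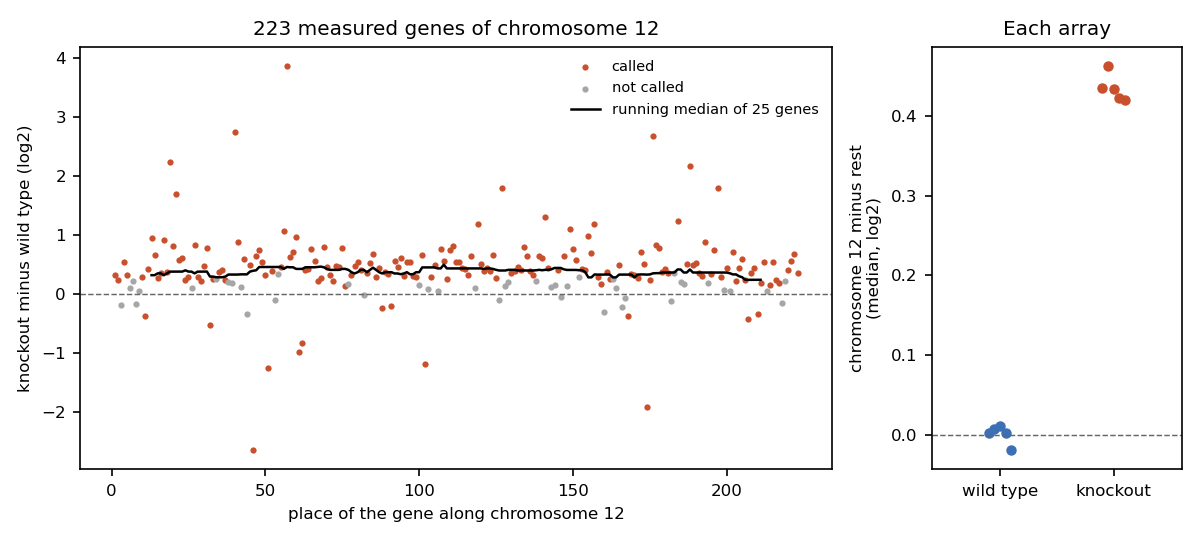
Left, log2 difference of each of the 223 measured genes in their order along chromosome 12, with a running median of 25 genes. Right, the median of chromosome 12 minus the median of all other genes on each array, relative to the wild-type mean, which lay at 0.42 to 0.46 in knockout and -0.02 to 0.01 in wild-type arrays.

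Around Atp2b4 itself, on chromosome 1, most called neighbours were higher. Of the 20 measured genes nearest to it, 10 on each side, 10 were higher and 1 lower (55% called, against 56.2% over all genes, of which 25.5% were higher and 30.7% lower). Of the nearest 10 genes 5 were higher and 0 lower, and of the nearest 40 genes 15 were higher and 11 lower. The difference between these shares was not tested. Prelp, a small matrix proteoglycan and the nearest measured gene on one side, read 7.34, 7.34, 7.21, 7.24 and 7.08 in the wild-type arrays and 9.31, 9.11, 9.35, 8.85 and 8.99 in the knockout arrays. The groups lay apart, 3.68-fold higher in knockout cells (log2 difference 1.88, SE 0.10, adjusted p = 4.62e-09). Nuak2, a stress-responsive kinase, was undetected on wild-type arrays and at least 2.76-fold higher.

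Late G1 regulators split by family member. Of 9 measured G1 cyclins, kinases and their regulators 4 were higher and 4 lower. Ccnd2, the D cyclin that growth factors induce, read 10.55, 10.56, 10.93, 10.58 and 10.45 in the wild-type arrays and 11.44, 11.78, 11.68, 11.69 and 11.59 in the knockout arrays. Every knockout array stood above every wild-type array (2.03-fold; log2 difference 1.02, SE 0.09, adjusted p = 1.09e-06). Ccne1, a cyclin that activates Cdk2 at the G1/S boundary, read 8.16, 8.06, 7.98, 8.13 and 8.21 in the wild-type arrays and 8.87, 8.81, 8.80, 8.93 and 9.02 in the knockout arrays, again without overlap, 1.71-fold higher. Ccne2 rose 1.51-fold and Ccnd1 1.38-fold. Cdk2, the partner kinase of the E cyclins, fell 1.32-fold, Ccnd3 1.25-fold, and the phosphatase Cdc25a, which activates Cdk2, 1.15-fold. Without wild-type replicate 1 or 5 or knockout replicate 3 the call of Cdc25a was lost (limma adjusted p = 0.054, 0.0563 and 0.0627). Myc, a driver of growth, differed by -0.15 on the log2 scale without a call, and by -0.27 without knockout replicate 3 (limma adjusted p = 0.0395).

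Inhibitors split too, 5 of 11 higher and 5 lower. Cdkn1a, the inhibitor p21, read 10.74, 10.70, 10.96, 10.77 and 10.66 in the wild-type arrays and 12.20, 12.01, 12.17, 12.10 and 12.08 in the knockout arrays, 2.55-fold higher in knockout cells with no overlap (log2 difference 1.35, SE 0.07, adjusted p = 3.32e-09). Cdkn2b, an inhibitor of the D cyclin kinases, rose 1.67-fold. Cdkn1b, the inhibitor p27, fell 1.63-fold and the stress gene Gadd45a 2.35-fold. Cdkn2a, whose locus encodes more than one inhibitor, had 2 called probes that disagreed, at log2 differences of 0.59 and -0.24, so its direction rests on the probe chosen. Of 22 measured p53 targets 16 were higher and 2 lower (median log2 difference 0.48). Among them the kinase Plk2 rose 3.03-fold, the death receptor Fas 2.78-fold, and Ccng1, a cyclin induced by p53, 2.20-fold. Mdm2, which degrades p53, rose 1.45-fold, while Ddit4, a brake on growth signalling, fell 1.74-fold.

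Genes of DNA copying and division were mostly lower. A link to the regulators above was not tested, and fewer cells in a phase cannot be told apart from less RNA per cell in bulk samples. Of 41 measured replication genes 32 were lower (15 and 17 within the single array sets) and 1 higher (median -0.28), and of 19 repair and checkpoint genes 12 were lower and 0 higher. Of 36 mitotic genes 33 were lower and 1 higher, with a median of -0.64 on the log2 scale against -0.04 over all genes. The single higher members, Rrm2, a subunit of the enzyme that makes DNA building blocks (1.72-fold), and Ncapg2, a condensin subunit (1.28-fold), both lie on chromosome 12. So does E2f6, a repressing E2F, 1.76-fold higher. The other, dimmer probe of Ncapg2 differed by -0.10 on the log2 scale without a call.

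Promoters are shown of members of the lowered groups that hold a textbook motif of their group. The windows run from 250 bases before to 50 after the gene start (RefSeq, GRCm38.p6). Capitals mark the CHR (TTTGAA or TTCGAA) and CCAAT in the mitotic genes, the E2F site (TTTCGCGC or TTTGGCGC) in the replication genes, and the ISRE (GAAANNGAAA) in the interferon genes described further on, on either strand. Bub1b, a mitotic checkpoint kinase (chr2:118597961-118598260, plus strand), and Kif23, a motor of cytokinesis (chr9:61946750-61947049, minus strand), stand for the mitotic genes. Cdt1, which loads the replicative helicase (chr8:122567765-122568064, plus strand), and Mcm7, a subunit of that helicase (chr5:138171834-138172133, minus strand), stand for replication. Igtp, an interferon-induced GTPase (chr11:58199306-58199605, plus strand), and Isg15, a ubiquitin-like protein (chr4:156200769-156201068, minus strand), stand for the interferon response.
Bub1b: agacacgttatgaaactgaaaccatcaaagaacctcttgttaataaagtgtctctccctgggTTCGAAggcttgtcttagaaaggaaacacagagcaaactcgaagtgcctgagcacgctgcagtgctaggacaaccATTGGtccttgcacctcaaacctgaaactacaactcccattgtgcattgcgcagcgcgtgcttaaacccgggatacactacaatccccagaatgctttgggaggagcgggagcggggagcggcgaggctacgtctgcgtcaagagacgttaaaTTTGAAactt
Kif23: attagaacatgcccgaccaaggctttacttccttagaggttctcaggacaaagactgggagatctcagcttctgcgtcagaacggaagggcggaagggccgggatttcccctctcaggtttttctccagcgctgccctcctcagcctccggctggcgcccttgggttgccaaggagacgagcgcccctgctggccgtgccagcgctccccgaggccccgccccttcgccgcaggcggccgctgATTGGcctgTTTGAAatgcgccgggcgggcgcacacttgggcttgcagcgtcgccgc
Cdt1: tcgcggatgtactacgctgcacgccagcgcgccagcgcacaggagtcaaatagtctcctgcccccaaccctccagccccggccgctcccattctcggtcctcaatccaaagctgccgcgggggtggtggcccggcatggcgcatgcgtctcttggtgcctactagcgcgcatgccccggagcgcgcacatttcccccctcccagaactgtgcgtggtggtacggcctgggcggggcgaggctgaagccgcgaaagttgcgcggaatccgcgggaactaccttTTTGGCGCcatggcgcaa
Mcm7: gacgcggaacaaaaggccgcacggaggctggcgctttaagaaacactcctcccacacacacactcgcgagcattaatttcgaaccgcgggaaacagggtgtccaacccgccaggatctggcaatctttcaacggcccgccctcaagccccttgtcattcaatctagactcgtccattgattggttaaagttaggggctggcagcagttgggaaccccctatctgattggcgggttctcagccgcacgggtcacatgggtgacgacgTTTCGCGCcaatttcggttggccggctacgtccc
Igtp: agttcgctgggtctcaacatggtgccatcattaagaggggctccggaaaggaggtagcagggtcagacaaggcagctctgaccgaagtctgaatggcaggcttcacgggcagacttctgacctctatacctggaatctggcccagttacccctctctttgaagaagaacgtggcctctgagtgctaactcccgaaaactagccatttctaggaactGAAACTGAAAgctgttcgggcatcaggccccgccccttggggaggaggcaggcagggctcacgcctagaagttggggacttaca
Isg15: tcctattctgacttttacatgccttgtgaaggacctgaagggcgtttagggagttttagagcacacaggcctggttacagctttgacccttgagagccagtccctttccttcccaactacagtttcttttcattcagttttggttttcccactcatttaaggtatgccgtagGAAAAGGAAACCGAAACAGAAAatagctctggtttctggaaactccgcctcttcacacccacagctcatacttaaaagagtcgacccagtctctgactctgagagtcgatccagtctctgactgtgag

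Of 32 mitotic genes with a window, 25 held a CHR (78.1%), against 13.9% of the 5731 measured genes with a window and 19.4% of all 27025 promoters. A CHR together with a CCAAT stood in 20 of the 32 (62.5%), against 6.12% of measured genes and 7.7% of all promoters. All 20 of these were called lower (median log2 difference -0.68), as were 9 of the 12 mitotic genes without the pair (median -0.37). Outside the list, 331 measured genes held the pair, and 38.4% of them were lower and 20.8% higher, against 30.7% and 25.1% of all measured genes with a window. The E2F site stood in 5 of 36 replication genes (13.9%), against 1.8% of measured genes and 0.833% of all promoters. All 5 were lower, as were 24 of the 31 replication genes without it (77.4%). Outside the list, 98 measured genes held the site, and 41.8% of them were lower and 20.4% higher. For the contractile genes described further on, the planned motif was CArG (CC, a run of A or T, GG). It stood in 2 of 10 with a window (20%), against 1.43% of measured genes and 1.57% of all promoters. Both were higher, as were 6 of the 8 without it. Outside the list 80 measured genes held it, and 25% of them were higher, against 25.1% of all measured genes with a window. A match of letters is a description and not a bound site.

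Bub1b read 10.59, 10.25, 10.24, 10.40 and 10.64 in the wild-type arrays and 9.53, 9.40, 9.52, 9.31 and 9.32 in the knockout arrays. The ranges did not touch, and the knockout was 2.01-fold lower (log2 difference -1.01, SE 0.09, adjusted p = 8.68e-07). Kif23 read 10.97, 11.15, 11.05, 10.85 and 10.98 in the wild-type arrays and 10.08, 10.09, 10.03, 9.91 and 9.94 in the knockout arrays, 1.99-fold lower. Ccna2, the cyclin of S phase and G2, was detected on all wild-type arrays and no knockout array, at least 1.5-fold lower. The kinesin Kif18a fell 1.98-fold, the ubiquitin-conjugating enzyme Ube2c at least 1.68-fold, thymidylate synthase Tyms 1.61-fold, Cdt1 1.58-fold and Mcm7 1.53-fold. Mybl2, which works with E2F on cell cycle promoters, read 10.13, 10.26, 10.34, 10.28 and 10.14 in the wild-type arrays and 8.66, 8.30, 8.52, 8.48 and 8.62 in the knockout arrays. That is 3.28-fold lower with no overlap (log2 difference -1.71, SE 0.08, adjusted p = 9.92e-10). E2f2 fell 3.71-fold, whereas E2f1 differed by -0.08 on the log2 scale without a call.

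**Figure D4:**
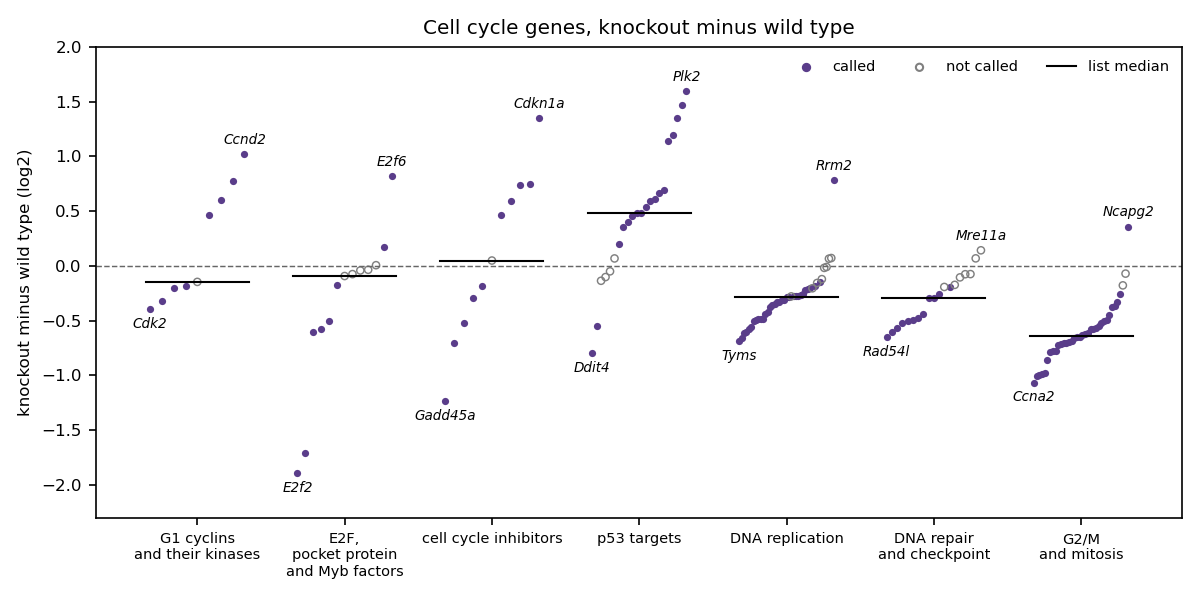
Log2 difference (knockout minus wild type) of each measured gene in 7 cell cycle lists, filled where called, with the list median as a line and the extreme genes named. The G2/M genes have a median of -0.64 and the p53 targets of 0.48, while G1 cyclins and inhibitors lie on both sides of 0.

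Contractile genes were mostly higher where they were measured. Of 13 measured members 11 were higher and 0 lower (median 0.46), and 9 of the 22 on the array were detected on no array. Of the 13, 2 were undetected on all wild-type arrays and entered only through the knockout, so the detection filter fixed their direction. With detection on all 10 arrays 8 instead of 11 were higher. Tagln read 8.52, 8.69, 8.58, 8.71 and 8.09 in the wild-type arrays and 10.12, 10.32, 10.01, 10.14 and 9.92 in the knockout arrays, 3.00-fold higher without overlap (log2 difference 1.59, SE 0.12, adjusted p = 1.41e-07). Acta2 read 14.59, 14.51, 14.61, 14.69 and 14.46 in the wild-type arrays and 15.97, 16.02, 15.95, 15.97 and 15.95 in the knockout arrays, with the knockout values close to the top of the scale at 16.02. Its 4 probes gave log2 differences from 1.40 to 2.49. Cald1, caldesmon, was undetected on wild-type arrays and at least 1.38-fold higher, and vinculin, Vcl, rose 1.42-fold. Acta1, the skeletal muscle actin, was also undetected on wild-type arrays and at least 5.97-fold higher, while Myod1, Ckm and Tnnt3 of skeletal muscle were detected on no array.

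Regulators of muscle genes were mostly higher, 16 of 24, with 5 lower. Fhl1, a LIM protein of muscle, read 8.62, 8.67, 8.46, 8.84 and 8.54 in the wild-type arrays and 10.53, 10.88, 10.63, 10.84 and 10.76 in the knockout arrays, 4.30-fold higher (log2 difference 2.10, SE 0.09, adjusted p = 5.04e-10). Pparg, a nuclear receptor, rose 2.57-fold, Ccn1, a matrix protein driven by SRF and YAP, 2.46-fold, and Csrp2, a smooth muscle LIM protein, 2.34-fold. Tead2, a partner of YAP, fell 2.57-fold while Tead4 was undetected on wild-type arrays and at least 1.52-fold higher. The gene of SRF itself, Srf, differed by 0.03 on the log2 scale without a call. Of 38 measured genes of the actin cytoskeleton 16 were higher and 8 lower (63.2% called, against 56.2% of all genes). Gsn, gelsolin, which cuts actin filaments, was undetected on wild-type arrays and at least 14.8-fold higher. Among other cytoskeletal genes Septin9 fell 2.05-fold, the microtubule destabilizer Stmn1 1.95-fold and lamin B2, Lmnb2, 1.58-fold; of 14 measured intermediate filament, tubulin and septin genes 8 were lower and 2 higher.

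Collagens, elastic fibre genes and fibroblast markers were mostly higher. Of 14 measured collagens 10 were higher and 2 lower (median 0.71), and of 24 elastic fibre and matricellular genes 16 were higher and 7 lower (median 0.70). Of 17 measured proteoglycans 8 were higher and 4 lower (median 0.24), and of 20 collagen-modifying enzymes 8 were higher and 6 lower (median 0.0042). Of 12 measured fibroblast and adventitial markers 10 were higher and 2, Pdgfra and Fbln1, lower. Of these 12, 5 were undetected on all wild-type arrays and entered only through the knockout, so the detection filter fixed their direction. With detection on all 10 arrays 3 instead of 10 were higher. The summed intensity of the 12 ran from 7097 to 8330 in wild-type arrays and from 46655 to 50454 in knockout arrays. Most of that rise lay in Thy1, a surface protein of fibroblasts, with 632 to 767 in wild type and 27364 to 30808 in knockout cells, and in Serpinf1, a secreted serpin, with 56.6 to 88.3 and 6114 to 7226. Without both the sum of the other 10 ran from 6405 to 7580 and from 12645 to 13532. Lum, Pi16, Fap, Col14a1, Tcf21 and Dpep1 of that list were detected on no array. The part of fibroblasts in the matrix result was not tested.

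Col6a2, a chain of the beaded collagen VI, rose 3.35-fold. The chains of collagen I, the main fibril of the artery wall, rose together. Col1a1 read 11.11, 11.02, 11.17, 10.77 and 11.18 in the wild-type arrays and 12.24, 12.29, 12.29, 12.38 and 12.35 in the knockout arrays, 2.39-fold higher with no overlap (log2 difference 1.26, SE 0.08, adjusted p = 3.2e-08), and Col1a2 rose 2.50-fold. Col7a1, the anchoring fibril collagen, rose at least 2.83-fold, while Col4a6 fell 1.70-fold and Col15a1 1.44-fold. Among enzymes that process collagen, Pcolce2, an enhancer of procollagen cleavage, rose 4.81-fold, and the crosslinking hydroxylase Plod2 2.37-fold, whereas Bmp1, the cleaving protease, fell 1.44-fold.

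Mfap5, a microfibril protein, read 7.23, 7.42, 7.28, 7.30 and 7.23 in the wild-type arrays and 11.19, 11.31, 11.25, 11.14 and 11.19 in the knockout arrays. The groups lay apart, with all 10 arrays detected, and the knockout was 15.2-fold higher (log2 difference 3.92, SE 0.06, adjusted p = 7e-14). Tgfbi, a matrix protein induced by TGF-beta, rose 9.79-fold, Spon2 8.43-fold and elastin, Eln, 2.46-fold. Fbln1, fibulin 1, fell 1.93-fold and matrix Gla protein, Mgp, an inhibitor of calcification, 1.58-fold. Has1, which makes hyaluronan, rose 6.65-fold, while agrin, Agrn, fell 2.96-fold. For fibulin 2 the probes disagreed: 2 of them fell, with log2 differences of -0.29 and -0.25, and the other rose by 2.26.

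Integrin chains moved in both directions, 7 of 15 measured laminin, integrin and adhesion genes higher and 4 lower. Itga3, a laminin receptor chain, read 9.72, 9.74, 9.71, 9.35 and 9.79 in the wild-type arrays and 7.30, 7.21, 7.22, 7.13 and 7.29 in the knockout arrays, 5.39-fold lower with no overlap (log2 difference -2.43, SE 0.08, adjusted p = 7.43e-11). Itga7, the laminin receptor chain of muscle, was detected on no knockout array and at least 3.83-fold lower. Itga6 and Itgb4, which pair in hemidesmosomes, were undetected on wild-type arrays and at least 1.44-fold and at least 1.40-fold higher, and the fibronectin receptor chain Itga5 rose 1.79-fold. Of 28 measured matrix proteases and inhibitors 17 were higher and 5 lower (78.6% called, against 56.2% of all genes). The detection filter fixed the direction of 3 of the 28, which were undetected on all wild-type arrays. Adamts1, a protease of versican, rose 3.72-fold and Timp3, a protease inhibitor, 1.91-fold; the gelatinase Mmp2 fell 1.63-fold.

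**Figure D5:**
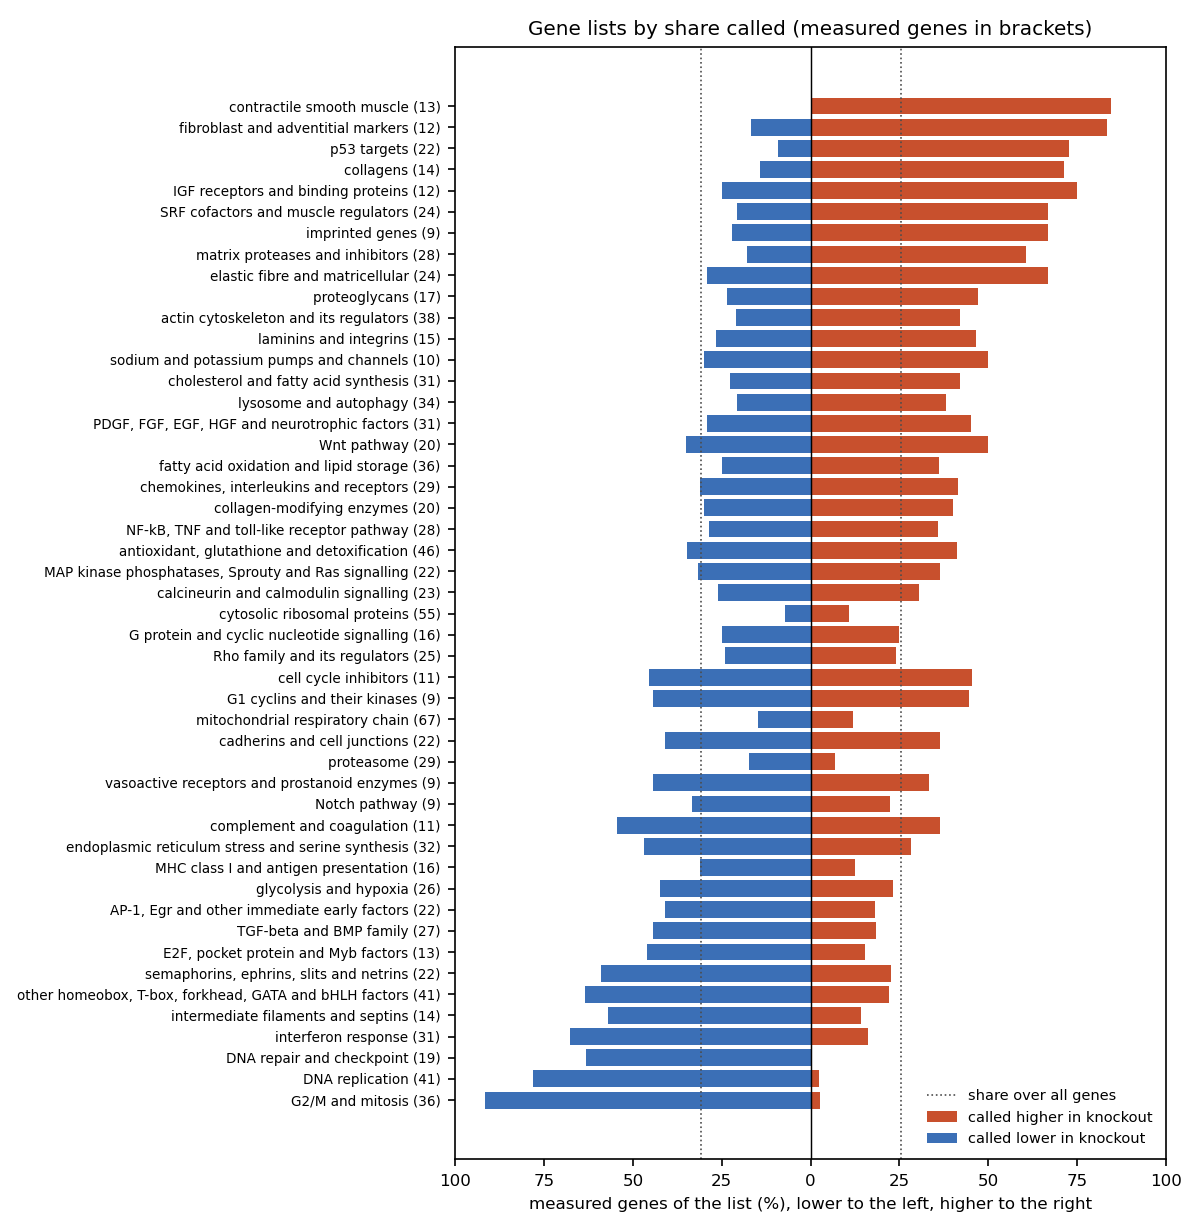
Percentage of the measured genes of each list with at least 9 measured genes that were called higher (right) or lower (left) in knockout cells, ordered by the difference between the shares. Dotted lines mark 25.5% and 30.7%, the shares over all genes; contractile genes stand at the top and G2/M genes at the bottom.

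Growth factor genes moved in both directions, 14 of 31 measured ligands and receptors higher and 9 lower (74.2% called). All 12 measured genes of IGF signalling and binding were called, 9 higher and 3 lower, against 56.2% of all genes. Of the 12, 5 were undetected on all wild-type arrays and entered only through the knockout. The detection filter thus fixed their direction, and no excess over all genes can be read from the share. Igfbp4, a binding protein, rose 5.92-fold, Igfbp7 3.08-fold and the receptor Igf1r 1.45-fold; Irs2, an adaptor of that receptor, fell at least 1.93-fold. Igf2bp1 and Igf2bp3, RNA-binding proteins typical of embryonic tissue, were undetected on wild-type arrays and at least 2.03-fold and at least 5.88-fold higher. Dlk1, an imprinted gene on chromosome 12, was undetected on wild-type arrays and at least 2.05-fold higher.

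Vegfa, the main growth factor of blood vessels, read 11.57, 11.22, 11.11, 11.29 and 11.42 in the wild-type arrays and 9.67, 9.62, 9.77, 9.56 and 9.83 in the knockout arrays. The groups were separate and the knockout 3.10-fold lower (log2 difference -1.63, SE 0.09, adjusted p = 7.99e-09). Its receptor Flt1 rose 6.42-fold and Angpt2, a regulator of vessel stability, 3.12-fold. Fgf2 was undetected on wild-type arrays and at least 2.09-fold higher, and Fgf10 and Kitl, the ligand of Kit, rose 3.78-fold and 3.37-fold. Of the receptors for the stimulating factor, Pdgfra fell 1.38-fold and Pdgfrb differed by 0.29 on the log2 scale without a call (limma adjusted p = 0.0655). With the array set as a block Pdgfrb was called (limma adjusted p = 0.0046), and so it was without wild-type replicate 5 (0.40, limma adjusted p = 0.00633).

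Fst, follistatin, which binds activins, read 7.14, 7.06, 6.92, 7.24 and 6.59 in the wild-type arrays and 10.33, 10.63, 10.55, 10.59 and 10.55 in the knockout arrays, 11.6-fold higher with separate ranges (log2 difference 3.54, SE 0.11, adjusted p = 3.77e-11). Within the TGF-beta and BMP family 12 of 27 were lower and 5 higher (63% called, against 56.2% of all genes). The signal carrier Smad3 fell 1.89-fold, the receptor Tgfbr1 1.80-fold and the BMP antagonist Grem1 2.00-fold.

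Wnt ligands moved in both directions, and 10 of 20 measured Wnt pathway genes were higher and 7 lower. The detection filter fixed the direction of 3 of the 20, which were undetected on all wild-type arrays. Wnt5a, a ligand of the branch that does not use beta-catenin, was at least 4.79-fold lower, and its receptor Ror2 fell 2.58-fold. Wnt2, a beta-catenin ligand, and Rspo2, which strengthens that branch, were undetected on wild-type arrays and at least 2.39-fold and at least 1.44-fold higher. The receptor Fzd7 rose 2.08-fold and Wnt10a 2.45-fold. Of 22 measured guidance genes 13 were lower and 5 higher. Among the 22, 2 were undetected on all knockout arrays and 1 on all wild-type arrays, which fixed their direction. Sema3a, a repelling semaphorin, fell 3.59-fold, the slit receptor Robo1 2.56-fold and the ephrin Efna1 at least 1.93-fold; Epha3, an ephrin receptor, was undetected on wild-type arrays and at least 6.13-fold higher.

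Of 16 measured genes of G protein and cyclic nucleotide signalling 4 were higher and 4 lower (50% called, against 56.2% of all genes). Rgs16, a protein that shuts off G protein signals, was at least 18.7-fold higher and detected on 2 of 5 wild-type arrays, while Rgs17 was at least 5.56-fold lower. The cyclic AMP phosphodiesterase Pde4d fell 2.59-fold and Pde8a was at least 1.72-fold higher. Of 9 measured vasoactive receptors and prostanoid enzymes 3 were higher and 4 lower. Ramp3 of that list, a partner of the adrenomedullin receptor, was detected on no knockout array and at least 3.02-fold lower. Adm, adrenomedullin itself, a vessel-relaxing peptide counted among the glycolysis and hypoxia genes (6 of 26 higher, 11 lower), was undetected on wild-type arrays and at least 6.71-fold higher. Of 10 measured sodium and potassium pumps and channels 5 were higher and 3 lower. Fxyd6, a regulator of the sodium pump, was undetected on wild-type arrays and at least 5.58-fold higher, and the pump subunit Atp1b1 rose 2.53-fold.

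Interferon response genes were mostly lower, 21 of 31 with 5 higher (median -0.54). Of the 31, 5 were undetected on all knockout arrays and entered only through the wild type, so the detection filter fixed their direction. With detection on all 10 arrays 13 instead of 21 were lower. Isg15 read 8.81, 8.92, 9.09, 8.82 and 8.96 in the wild-type arrays and 8.06, 7.94, 7.85, 7.42 and 7.86 in the knockout arrays, 2.14-fold lower with no overlap (log2 difference -1.09, SE 0.11, adjusted p = 2.42e-06). Oasl2, an antiviral protein, was detected on no knockout array and at least 1.47-fold lower, as was Igtp, at least 2.34-fold lower, and Bst2, tetherin, fell 2.44-fold. The factors Irf1 and Irf9 fell 1.73-fold and 1.55-fold, and Stat2 1.48-fold. Against the list, Ifit3 rose 1.87-fold. The ISRE shown in the Igtp and Isg15 windows stood in 14 of 27 interferon genes with a window (51.9%), against 2.79% of measured genes and 3.49% of all promoters. Outside the list 146 measured genes held it, and 32.9% of them were lower, against 30.7% of all measured genes with a window.

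Cytokine genes were split, 12 of 29 higher and 9 lower. The monocyte attractants Ccl2 and Ccl7 rose 2.96-fold and at least 6.81-fold, with Ccl7 detected on 1 of 5 wild-type arrays. Cxcl12, which holds stem cells in their niche, fell 2.57-fold and the membrane-bound chemokine Cx3cl1 2.77-fold. Tnfrsf11b, the decoy receptor osteoprotegerin, was undetected on wild-type arrays and at least 8.51-fold higher. Clusterin, Clu, fell 3.29-fold and thrombomodulin, Thbd, which checks clotting, rose 3.05-fold.

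Developmental transcription factors were mostly lower, 26 of 41 with 9 higher (median -0.51). Of the 41, 3 were undetected on all knockout arrays and entered only through the wild type, so the detection filter fixed their direction. With detection on all 10 arrays 21 instead of 26 were lower. Dlx1, a homeobox factor of the head and neural crest, read 10.72, 10.71, 10.64, 10.60 and 10.56 in the wild-type arrays and 7.68, 7.60, 7.47, 7.56 and 7.67 in the knockout arrays. The ranges were separate (8.30-fold lower; log2 difference -3.05, SE 0.06, adjusted p = 8.32e-13). Scx and Mkx, which drive tendon genes, and the T-box factor Tbx3 were detected on no knockout array and at least 2.36-fold, at least 1.43-fold and at least 2.65-fold lower. Foxf1, a forkhead factor of visceral mesenchyme, fell 4.02-fold. Tfap2a, a neural crest factor, was at least 4.78-fold higher while its relative Tfap2b fell 3.99-fold, and Twist2 rose 2.98-fold. Of 8 measured Hox genes 3 were higher and 1 lower (50% called, against 56.2% of all genes). Of the 8, 2 were undetected on all wild-type arrays and entered only through the knockout, among them Hoxa7, at least 4.58-fold higher.

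The shares called in housekeeping groups lay between 18.2% and 26.9%, beside 56.2% of all genes. Of 55 measured ribosomal protein genes 6 were higher and 4 lower (18.2% called), of 67 respiratory chain genes 8 and 10 (26.9%), and of 29 proteasome genes 2 and 5 (24.1%). The difference in share was not tested. Detoxifying enzymes were called in 76.1% of 46 genes, 19 higher and 16 lower. Of the 46, 3 were undetected on all wild-type arrays and 2 on all knockout arrays. The detection filter fixed their direction, so no excess over all genes can be read from the share. Aldh3a1 and Aldh1a1, aldehyde dehydrogenases, were undetected on wild-type arrays and at least 11.3-fold and at least 1.92-fold higher, Hmox1, heme oxygenase, rose 2.30-fold, and the glutathione transferases Gstt1 and Gsta4 fell 6.47-fold and 2.16-fold. In the stress and serine group 15 of 32 were lower and 9 higher; the amino acid carriers Slc1a4 and Slc7a5 fell 2.21-fold and 1.67-fold, and the stress gene Nupr1 2.93-fold.

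Some genes were detected in one group alone. Of 16593 named genes on the array, 118 were detected on all knockout and no wild-type arrays, and 72 on all wild-type and no knockout arrays, beside 6181 detected on all 10 and 8940 on none. With a detection p under 0.05 as the limit, these counts were 105 and 47. In the knockout alone were Renbp, the renin-binding protein (at least 9.68-fold higher), Lmcd1, a LIM protein of heart and vessel (at least 9.50-fold), and Ly6c1, a surface protein of fibroblasts and leukocytes (at least 8.63-fold). In the wild type alone were Tenm3, a teneurin of axon guidance (at least 3.70-fold lower), and Slc25a45, a mitochondrial carrier (at least 5.82-fold). Crabp1, which carries retinoic acid, was at least 17.0-fold higher with 2 of 5 wild-type arrays detected. The metalloprotease-like Adam23 was at least 17.5-fold higher with 1 detected.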

How the data were processed

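RNA of primary vascular smooth muscle cells was read on 24 Illumina bead arrays with 25697 probes, of which the 5 PMCA4 knockout and 5 wild-type arrays were used. The deposited intensity table holds background-subtracted bead intensities, not normalized between arrays, per the file headers, and a detection p-value for each was deposited beside it. The authors deposited a further table of log2 values, used as an alternative; its processing is not stated in the labels.

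Intensities of the 10 arrays were normalized with neqc of limma 3.58.1 (R 4.3.3), with an offset of 16 and quantile scaling. A probe entered when its detection p was under 0.01 on 5 or more arrays (9974 probes, of which 565 have no gene name here). A gene undetected on all arrays of one group thus entered only through the other group, which fixed its direction. The probe with the highest mean stood for its gene, named through the platform annotation and RefSeq gene IDs, which give 23978 probes 1 gene. The array number limits the precision. Linear models with eBayes gave two-sided tests (8 residual degrees of freedom), adjusted by Benjamini-Hochberg over all 6954 genes and called under 0.05. The script was tested on simulated data. Where the dimmer group was undetected on some arrays, "at least N-fold" sets the bright mean against, on every array, whichever is larger of the probe's value and the lowest detected signal (6.35 to 6.51 on the log2 scale). Same-numbered replicates did not qualify as pairs. Gene order and chromosomes came from RefSeq (GRCm38.p6), as did promoters, the first listed window per gene. Figures used Python 3.11.15, pandas 2.3.3 and matplotlib 3.10.9.

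The comparison and the gene lists were chosen with earlier results of these data known. Named were the pumps and Rgs16, the 15 largest differences in each direction without overlap, up to 4 called members per list, all members of short lists, and neighbours of Atp2b4; not every one is printed. A further 51 genes were chosen after their values were seen. Alternatives covered background, offset, scaling, filter, probe choice, blocks, model and left-out arrays.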

Additional observations from a re-analysis of the deposited data

Results flagged for a closer look

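Each named gene was looked at for 1 array far from the other 4 of its group, where the gap to the nearest array exceeds 0.71 of the group's range. Of 352 such groups 19 had one, and chance alone flags about 1 in 20. In the following, one array stood above the other 4 of its group. Acta2 read 16.02 in knockout replicate 2 against 15.95 to 15.97. Angpt2 read 7.25 in wild-type replicate 2 against 6.98 to 7.05. Cald1 read 7.21 in knockout replicate 5 against 6.75 to 6.86. Ccnd2 read 10.93 in wild-type replicate 3 against 10.45 to 10.58. Cxcl12 read 14.83 in wild-type replicate 2 against 14.59 to 14.64. Lyz1 read 5.72 in wild-type replicate 4 against 5.33 to 5.37. Nfatc1 read 8.29 in knockout replicate 2 against 7.98 to 8.05. Pdgfrb read 9.77 in knockout replicate 5 against 9.30 to 9.42. Rcan2 read 10.35 in knockout replicate 3 against 10.13 to 10.19. Scx read 7.94 in wild-type replicate 4 against 7.56 to 7.66. In the others, one array stood below. Atp1b1 read 8.62 in wild-type replicate 5 against 8.77 to 8.83. Fst read 10.33 in knockout replicate 1 against 10.55 to 10.63. Grem1 read 11.79 in wild-type replicate 5 against 12.06 to 12.14. Hoxa7 read 8.48 in knockout replicate 5 against 8.63 to 8.70. Irf1 read 10.14 in wild-type replicate 2 against 10.29 to 10.34. Itga3 read 9.35 in wild-type replicate 4 against 9.71 to 9.79. Mcm7 read 9.44 in knockout replicate 4 against 9.59 to 9.65. Pcolce2 read 9.13 in knockout replicate 5 against 9.29 to 9.35. Thbd read 9.67 in knockout replicate 1 against 9.96 to 10.08. Replicate 5 of either group accounts for 6 of the 19. The wild-type and knockout ranges of each of these genes except Pdgfrb and Nfatc1 stayed apart.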

How the results depend on the processing

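Of 169 named genes that were called, 158 kept their direction and call under every alternative that could test them. Within single array sets the calls of Orai3, Slc8b1, Stim1, Nfatc1, Ccnd3, Igf1r, Ncapg2 and Rab10 were each lost in at least 1 set, that of Rab10 also with median scaling, and that of Cdc25a in both sets and with no detection filter. Of 116 counts of list members called in one direction, those that moved by over 1.5 times numbered 38 within each array set, 15 with detection on all 10 arrays, 14 with no detection filter, 9 with all 24 arrays and 1 to 6 leaving out 1 array. Replication genes called lower fell from 32 to 15 and 17 within the sets and repair genes from 12 to 7 and 7, while mitotic genes lower numbered 31 and 30 against 33, and p53 targets higher 13 and 14 against 16. With detection on all 10 arrays, which removes genes undetected in one group, 13 instead of 21 interferon genes were lower and 3 instead of 10 fibroblast markers higher. Contractile genes called higher numbered 8 instead of 11 there, and 8 and 8 within the sets. Developmental factors called lower numbered 21 instead of 26 with detection on all 10 arrays, and 25 and 26 within the sets. Counts of genes called were within 1.5 times of 3910 except within single array sets, which hold 2 arrays of each group and so less power: 2353 called (1110 higher, 1243 lower) in the first set and 2333 (1099 and 1234) in the second. Genes with opposed probes numbered 9 and 3 there, against 18. Leaving out 1 array at a time, with 4 detected arrays as the limit, gave 3685 to 3806 called genes and 11 to 17 with opposed probes. The replicate numbers did not pair the samples: same-numbered deviations correlated at 0.114, 0.0663, 0.014, 0.0819 and 0.421, and the fit with the replicate block called 4003 genes, and of the named genes changed the call of Pdgfrb alone (limma adjusted p = 0.00532). The excess of chromosome 12 over the other genes, 0.43 on the log2 scale, was 0.41 with all 24 arrays, 0.40 in the authors' log2 table, 0.45 without normexp, 0.40 with an offset of 50, 0.46 with the probe of smallest p, 0.11 with no detection filter, where undetected probes enter, and 0.42 to 0.45 leaving out 1 array. Without chromosome 12 there were 1607 genes higher and 2117 lower. With a detection p under 0.05 the genes of the wild type alone numbered 47 instead of 72. Cdkn2a turned to -0.24 with all 24 arrays, where the other probe stood for it. Genes without a call changed sign: Atp2b4 to -0.0030 with median scaling and -0.016 in the second set, with -0.032 to 0.11 leaving out 1 array; Orai1 to -0.016 with median scaling and -0.034 in the second set; Srf to -0.025 with median scaling and -0.10 in the first set, with -0.011 to 0.065 leaving out 1 array.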

Other observations

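The shift of chromosome 12 was also read in the groups left out of the comparison, with all 24 arrays normalized together and each group set against wild type. The median log2 difference of chromosome 12 minus that of the other chromosomes was 0.44 in knockout cells, 0.15 in knockout cells with PMCA4b, 0.52 with vector A and 0.48 with vector B. For chromosome 3 it was -0.10, -0.40, -0.84 and -0.40 in the same order, and for chromosome 16 it was 0.05, 0.34, 0.13 and 0.09. Other chromosomes moved in these groups as well. With PMCA4b, chromosome 8 stood at -0.32, chromosome 14 at 0.28 and chromosome 15 at 0.26, and with vector A chromosome 4 stood at -0.35. These values are descriptions over probes, and all comparisons share the wild-type arrays.

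Camk2d, a kinase activated by calcium and calmodulin, had 3 kept probes, of which 2 rose (log2 differences 0.30 and 0.41) and 1 fell (-0.77). Which transcripts the probes read is not stated in the annotation.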
